A study of Homo sapiens with 12 samples.

Results

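The regions described here are the stretches of transcribed sequence in which each of 6 deposited lists of N6-methyladenosine (m6A) peaks has an interval. An interval is 1 line of a list. Intervals overlapping by 1 bp or more, with the strand the same, were joined into regions, and a region was kept when it held an interval of every list. This gave 1722 of 20742 joined regions, holding 10417 of the 53502 deposited intervals. The choice was made from the calls themselves, so the number of regions, their widths and their scores are given as a description and without a test.

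The series measured m6A by MeRIP-seq, which sequences RNA fragments captured by an antibody against the mark (IP) and, in parallel, fragments taken before capture (input). The cells were wild-type H460, an established line of human large cell lung cancer, either untreated or given rapamycin, an inhibitor of the mTORC1 kinase, at 100 nM for 24 h. The labels give 12 libraries, 3 for each of 4 combinations of treatment and library kind, and ribosomal RNA was depleted from the samples. Whether libraries of a group came from separate cultures is not stated. The record ties all 6 lists to untreated samples, inputs and IPs alike, whereas the names of 3 lists carry con and those of the other 3 carry rapamycin. No list was therefore given an arm, and no effect of rapamycin was tested. Letters A to F name the lists by the order of their samples in the record.

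N6-methyladenosine is the most abundant internal modification of mRNA. A nuclear complex built around the methyltransferases METTL3 and METTL14 places it, the demethylases FTO and ALKBH5 can remove it, and YTH-domain proteins bind it and alter the stability and translation of the transcript. In mammalian mRNA the mark is known to be concentrated in long internal exons, near stop codons and in 3′ untranslated regions. The regions below are called by the gene taken to lie there in hg19 from general knowledge of gene positions. No hg19 annotation was used, and the strand was not checked for 17 of the 105 genes named, EIF3A, SFPQ, CLU and TNKS1BP1 among them. Exon borders, stop codons and sequence motifs were not compared with the regions, and whether a region holds a methylated base was not tested.

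The deposited score is 1 value per interval and is the authors' own. What it measures is not stated, and many intervals carry the same value of 3100. Lists were compared by the percentile of a score within its list, which gives tied scores their mean rank. Scores are printed as deposited, and whether a score means the same in different lists is unknown. A score of 3100 then stands, for lists A to F in turn, at percentiles 98.0, 93.9, 94.8, 99.2, 99.2 and 99.4. The depth behind the lists is unknown, so the precision of a score cannot be stated.

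Of the 1722 regions, 23 scored 3100 or more in every list. These 23 regions lie in 20 genes, with EIF3A holding 3 of them and NCL 2. They were 124 to 2934 bp wide (median 779 bp), and 11 of them were narrower than 700 bp. In 17 of the 23 both ends were the same base in all 6 lists. All 23 stood at 3100 exactly in A, B, C and D, and higher values occurred only in SFPQ (3203.81 in E and 3230.05 in F) and TNKS1BP1 (3122.08 in F).

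The genes of these regions are given below by their known roles, an order chosen after the regions were seen that was not tested for enrichment. EIF3A encodes the largest subunit of the initiation factor eIF3. Its 3 regions at 3100 in every list lie on chromosome 10 (minus strand), from 120797517 to 120797951 (435 bp, with 401 bp common to all lists), from 120801506 to 120802284 (779 bp) and from 120809313 to 120809497 (185 bp). EIF5B, the initiation factor that joins the ribosomal subunits, held 1 such region on chromosome 2 from 99977611 to 99978283 (plus strand, 673 bp). NCL encodes nucleolin, an abundant nucleolar protein of ribosome biogenesis. Its regions lie on chromosome 2 (minus strand), from 232326251 to 232326728 (478 bp) and from 232328412 to 232328891 (480 bp).

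Single regions at 3100 or more in every list lay in SFPQ, RBM25, LUC7L3, PRRC2C and TOP1. SFPQ encodes a splicing factor of nuclear paraspeckles, and its region on chromosome 1 from 35654787 to 35654983 (minus, 197 bp) ranked first of all 1722, at percentiles of 99.99 in both E and F. Regions at RBM25 (chromosome 14, 73572567 to 73572789, plus, 223 bp) and LUC7L3 (chromosome 17, 48823081 to 48823364, plus, 284 bp), which encode splicing factors, were equally narrow. PRRC2C, an RNA-binding protein of stress granules, had a region on chromosome 1 from 171501482 to 171502100 (plus, 619 bp). TOP1 encodes DNA topoisomerase I, and its region on chromosome 20 from 39704811 to 39704934 (plus, 124 bp) was the narrowest of the 23. In SFPQ, RBM25, LUC7L3, PRRC2C and TOP1 both ends were equal in all lists.

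P4HB and PDIA4 encode protein disulfide isomerases of the endoplasmic reticulum. Their regions lie on chromosome 17 from 79801034 to 79801968 (minus, 935 bp) and on chromosome 7 from 148700154 to 148701301 (minus, 1148 bp). TGOLN2, a protein of the trans-Golgi network, held a region on chromosome 2 from 85553631 to 85554808 (minus, 1178 bp). CCPG1 is known as a receptor for autophagy of the endoplasmic reticulum. Its region on chromosome 15 from 55650296 to 55653142 (minus, 2847 bp) shared its 5′ end in all lists, whereas 6 different 3′ ends occurred and 1931 bp were common to all.

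LGALS3BP encodes a secreted glycoprotein, and its region covers chromosome 17 from 76967320 to 76968786 (minus, 1467 bp). CLU encodes clusterin, an extracellular chaperone, and its region on chromosome 8 from 27466454 to 27466603 (minus) was 150 bp wide. SPP1, which encodes osteopontin, and BASP1, which encodes a membrane-attached signalling protein, had regions on chromosome 4 from 88903644 to 88904563 (plus, 920 bp) and chromosome 5 from 17275317 to 17276954 (plus, 1638 bp). The BASP1 region had the same ends in every list, and in SPP1 899 bp were common to all.

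IER2 and IER5 are immediate early genes, which cells transcribe within minutes of a stimulus. IER2 held 2934 bp on chromosome 19 from 13262789 to 13265722 (plus), and IER5 held 2342 bp on chromosome 1 from 181057638 to 181059979 (plus). Their 3′ ends were equal in all lists and their 5′ ends were not, with 2891 bp of IER2 and 2171 bp of IER5 in the common part. TNKS1BP1, a partner of the tankyrases, held chromosome 11 from 57075869 to 57078030 (minus, 2162 bp), with identical ends in all 6 lists.

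Another 18 regions, in 18 genes, scored 3100 or more in 5 lists and lower in 1. They were chosen after their values were seen. The list with the lower score was F for 9 of them, E for 4, A for 3 and D for 2, and it was never B or C. The lists reach 3100 unequally often. In A, B and C, 450 of 12040, 1752 of 14908 and 1232 of 12288 intervals of the whole list scored 3100 or more. In D, E and F it was 71 of 4837, 71 of 4530 and 54 of 4899. The lower score ranged from 537.6 (ANKRD11, in F) to 2922.37 (IER5L, in A). These regions were wider than the preceding 23, with a median of 2004.5 bp.

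JUN and JUNB encode subunits of the AP-1 factor. The JUN region on chromosome 1 from 59246463 to 59249785 (minus, 3323 bp) scored 1880.99 in A and 3100 elsewhere. The JUNB region on chromosome 19 from 12902310 to 12904125 (plus, 1816 bp) scored 650.25 in F and 3100 elsewhere. HEXIM1, an inhibitor of the elongation factor P-TEFb, held the widest of these apart from ANKRD11, with 4785 bp on chromosome 17 from 43224684 to 43229468 (plus). Its score was 816.19 in A and 3100 in the other lists. TAF7, a subunit of TFIID, scored 920.32 in F on chromosome 5 from 140698057 to 140700351 (minus, 2295 bp). JUN, JUNB, HEXIM1, TAF7, IER5 and HSPA1A are genes known to have no introns. They were picked after the regions were seen. The share of such genes was not counted, neither among the 38 genes at 3100 or more in 5 or 6 lists nor over all regions.

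CALR encodes calreticulin, a chaperone of the endoplasmic reticulum, and its region on chromosome 19 from 13054527 to 13055304 (plus, 778 bp) scored 956.92 in F. HSPA1A, the stress-inducible Hsp70, had a region on chromosome 6 from 31783291 to 31785719 (plus, 2429 bp) with 2212.68 in D. A neighbouring region from 31795512 to 31798031 (2520 bp) lies at HSPA1B and scored 1427.23 in D, 2347.38 in E, 2161.11 in F and 3100 in A, B and C. These genes are near-identical copies, so reads of either could have been placed at the other, and neither region is certain. LRPAP1, a chaperone of lipoprotein receptors, scored 2514.07 in D, and the Golgi protein ACBD3 scored 2045.84 in F at its strongest region.

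The remaining genes with 1 score below 3100 were RBBP6 (2549.95 in E), GPC1 (2504.47 in E), NUFIP2 (2302.41 in E), TCEAL9 (1597.42 in E), NGRN (2353.09 in F), SDE2 (1512.24 in F), COL8A1 (1179.34 in F) and GASK1B (822.14 in F). GPC1 encodes a cell-surface proteoglycan and COL8A1 a collagen chain. The ANKRD11 region, on chromosome 16 from 89345480 to 89352057 (minus), was the widest of the 18 at 6578 bp and had identical ends in every list.

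At the other extreme, 714 regions (41.5%) were below 3100 in every list. Another 344 reached it in 1 list, 381 in 2, 203 in 3 and 39 in 4. From list A through F, the regions at or above 3100 numbered 305, 918, 706, 65, 59 and 46. The whole lists held 450, 1752, 1232, 71, 71 and 54 intervals at or above it. Over all 1722 regions the median percentiles, in the same order, were 85.9, 93.9, 86.6, 71.8, 71.8 and 72.1. Regions joined from 5 lists had a median of 67.7 for their own median percentile, against 80.6 for the regions in all 6, and those in 1 list had 21.8.

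**Figure D1:**
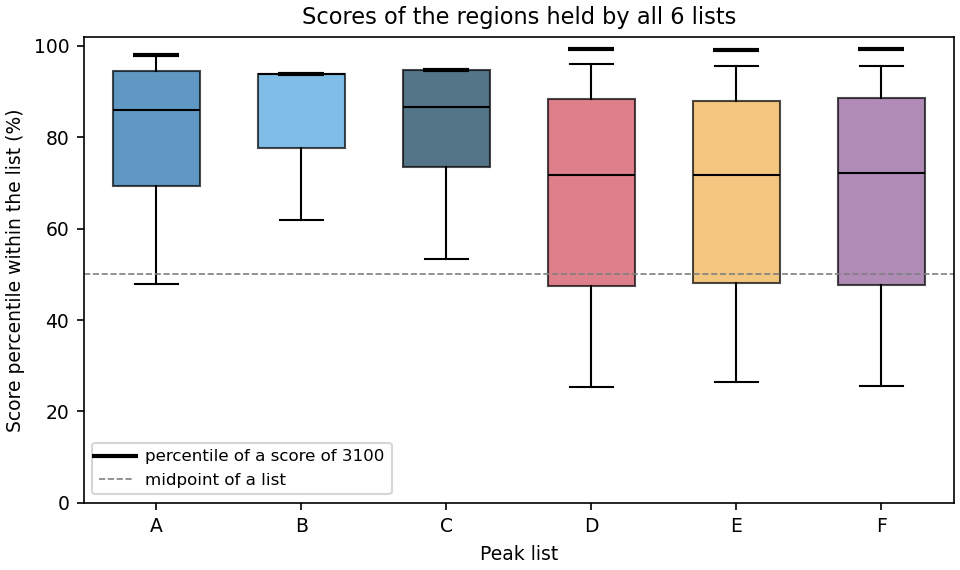
Score percentile within each list (vertical axis, %) of the 1722 regions held by lists A to F (horizontal axis). Boxes run from the 25th to the 75th percentile of the regions with the median as a line, whiskers from the 10th to the 90th, thick bars mark the percentile of a score of 3100, and the dashed line the midpoint of a list. Medians lie between 71.8 (D and E) and 93.9 (B), where the median coincides with 3100.

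The lists differ in length, and a larger share of each short list lies in these regions. The 6 lists hold 12040, 14908, 12288, 4837, 4530 and 4899 intervals, of which 14.4%, 11.7%, 14.1%, 35.8%, 38.3% and 35.3% fall in the 1722 regions. Among the 10% of intervals with the highest scores (ties at the limit included), the shares were 56.6%, 52.5%, 57.4%, 78.5%, 81.9% and 77.6%. Among the 10% with the lowest scores they were at most 1.30% in the 3 long lists and 13.3% in the 3 short ones.

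The lists ranked the regions only partly alike. Across the 1722 regions, which share transcripts and are not independent, Spearman's rho between percentiles ran from 0.34 (B and F) to 0.68 (B and C). It was 0.62 for D and E, 0.61 for A and C, and 0.57 for E and F. Pairs within the long lists (A, B and C) or within the short ones ran from 0.54 (D and F) to 0.68. Pairs of a long and a short list ran from 0.34 to 0.49 (C and D). In B 53.3% and in C 41.0% of the regions scored 3100 or more, where ties are many. Within a region the highest and lowest of the 6 percentiles differed by 42.2 points at the median and by 98.9 points at most. These ranges include the offset between lists, whose medians over the 1722 regions ran from 71.8 (D and E) to 93.9 (B). In 795 regions (46.2%) every list placed the region in its upper portion, at percentile 50 or higher, and in 360 (20.9%) at 75 or higher. In 7 regions every list placed it below 50.

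The region with the widest range of percentiles lies at SDC2, which encodes the cell-surface proteoglycan syndecan-2, on chromosome 8 from 97505882 to 97506559 (plus, 678 bp). Its scores from A to F were 3233.06, 3100, 3100, 71.78, 399.2 and 232.6, which stand at percentiles 99.99, 93.9, 94.8, 1.11, 75.2 and 62.7. PLEKHA5 on chromosome 12 from 19427450 to 19427917 (plus, 468 bp) stood at percentile 2.01 in D (a score of 72.92), against 93.9 in B and 98.0 in A. In GRWD1, a ribosome assembly factor, the low percentile was that of F (3.73), against 79.0 in D and 99.9 in C. CWC22, a splicing factor, was low in E (2.51, against 99.9 in B), and ALDH3A1, an aldehyde dehydrogenase, in D and E (2.93 and 14.2, against 98.0 in A). These 5 regions were picked by their range after the values were seen. In 4 of them both ends were equal in all lists, so intervals of the same extent ranked far apart.

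The 10 regions ranked lowest had median percentiles of at most 25.8. DOHH, an enzyme that modifies the translation factor eIF5A, had a region on chromosome 19 from 3490819 to 3491809 (minus) at percentile 47.1 in B and at 9.37 to 22.4 in the rest. ATF3, a stress-induced transcription factor, stood between percentiles 4.32 (B) and 49.7 (F) on chromosome 1 from 212792388 to 212794119 (plus). TENT4B, a poly(A) polymerase, stood between 6.42 (A) and 53.6 (F) over 124 bp. Other named genes among them were CAAP1, CWC25, TCF25 and SNX29. No region of the 10 belonged to a run of neighbours within 10 kb. Only 18.5% of all 1722 regions did, so with 10 regions this says little. The 10 regions had a median width of 265 bp.

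**Figure D2:**
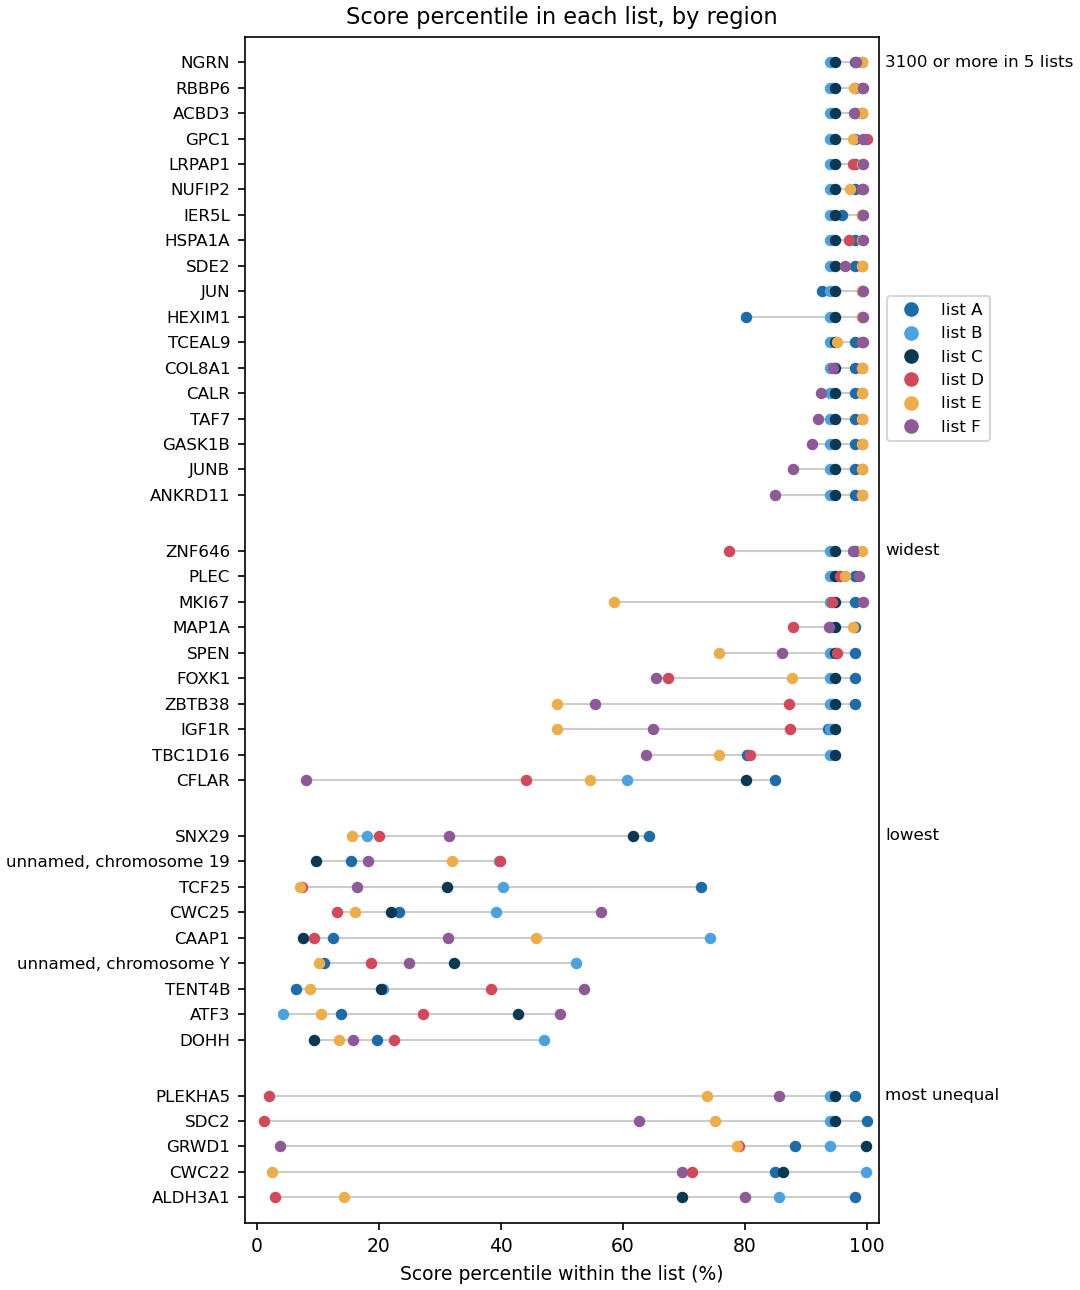
Score percentile within each list (horizontal axis, %) for regions named by the gene lying there (vertical axis), 1 coloured point per list and a grey line over their range. From top to bottom are the 18 regions at 3100 or more in 5 lists, the 10 widest, 9 of the 10 lowest and the 5 with the widest range; in the last group SDC2, PLEKHA5 and ALDH3A1 are lowest in D, GRWD1 in F and CWC22 in E.

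In width, the 1722 regions ran from 15 to 9239 bp, with a median of 997.5 bp and a middle range of 466 to 2021 bp. Those under 200 bp made up 10.9% and those over 3000 bp 12.8%. Regions in 5 lists had a nearly equal median of 1012 bp with 9.24% over 3000 bp, and the median was 817 bp in 4 lists, 589.5 bp in 3, 369 bp in 2 and 227 bp in 1. Joined regions widen as lists are added, which the sequence common to all lists does not. That common part amounted to 1.96 Mb of the 2.50 Mb covered by the 1722 regions (78.4%), with a median of 862 bp.

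**Figure D3:**
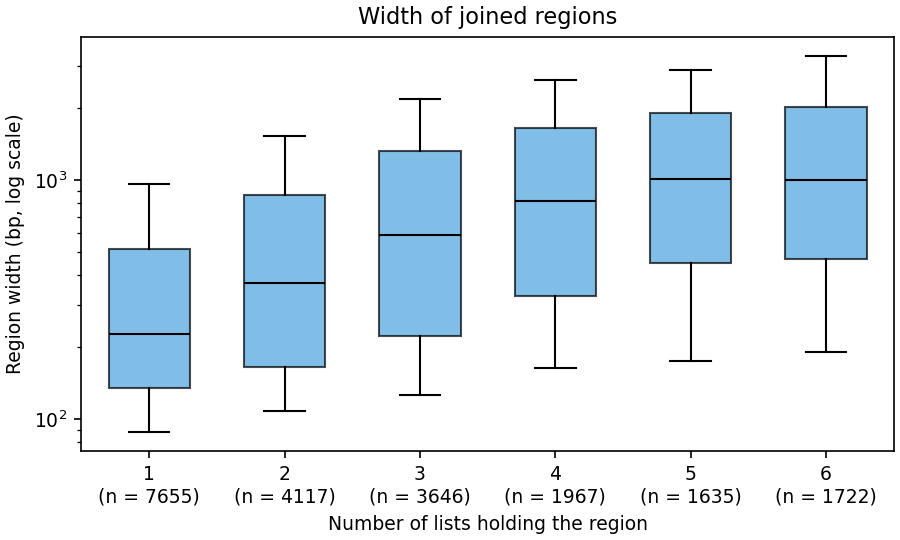
Width of joined regions (vertical axis, bp, log scale) by the number of lists that hold them (horizontal axis). Boxes run from the 25th to the 75th percentile with the median as a line and whiskers from the 10th to the 90th; the median is 227 bp for 1 list and 997.5 bp for 6.

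The 10 widest regions differed in how much of their width all lists shared. The widest, 9239 bp on chromosome 2 from 202027719 to 202036957 (plus), lies at CFLAR, an inhibitor of death-receptor signalling. Only 2067 bp of it were common to all lists, and its percentile ran from 7.97 in F to 85.0 in A. TBC1D16, a regulator of Rab proteins, held 8765 bp on chromosome 17 from 77906142 to 77914906 (minus), of which 2090 bp were common. MAP1A, a microtubule-associated protein, held 8185 bp on chromosome 15 from 43813522 to 43821706 (plus), all of it common to the 6 lists. SPEN, a transcriptional corepressor, held 8176 bp on chromosome 1 from 16254586 to 16262761 (plus), of which 8161 bp were common.

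The other wide regions differed in the same way. PLEC, a cytoskeletal linker (7249 bp, chromosome 8 from 144989315 to 144996563, minus), and MKI67, the proliferation marker Ki-67 (6845 bp, chromosome 10 from 129900843 to 129907687, minus), were identical in every list. In FOXK1 4699 of 7970 bp were common, in IGF1R 5761 of 7470 bp, in ZBTB38 5765 of 7209 bp and in ZNF646 5823 of 6773 bp. IGF1R, the receptor of insulin-like growth factor 1 (chromosome 15, 99500290 to 99507759, plus), stood at percentiles of 93.6 to 94.8 in A, B and C, at 87.5 in D, at 49.2 in E and at 65.0 in F. MKI67 stood at percentile 58.5 in E, with a score of 227.33, and at 93.9 or higher in the other lists.

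The 5 narrowest regions had both ends equal in every list, as did 3 of the 10 widest. At ALMS1, a gene of the centrosome and cilium, all 6 lists held the same 15 bp on chromosome 2 from 73689923 to 73689937 (plus). From A to F its scores were 477.26, 380.9, 1582.2, 734.71, 266.87 and 345.19, at percentiles between 50.6 (B) and 86.0 (D). XYLT1 had 39 bp on chromosome 16 from 17451869 to 17451907 (minus), ANP32B 52 bp, PRRC2C 54 bp and TOP1 56 bp.

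Equal ends were the rule over the whole set. In 981 of the 1722 regions (57.0%; exact 95% binomial interval 54.6% to 59.3%, counting error only) both ends were the same base in all lists, and in 1594 (92.6%) at least 1 end was. Equal ends were not particular to these regions. Both ends were equal in 52.3% of regions in 5 lists, 52.7% in 4, 58.0% in 3 and 61.3% in 2, where fewer lists had to match. The side of the equal end was uneven. Read in the direction of the strand, the 5′ end alone was equal in 467 regions and the 3′ end alone in 146, so 76.2% (72.6% to 79.5%) of the regions with 1 equal end kept the 5′ end. The share was 76.6% on the plus strand and 75.8% on the minus strand. It was not particular to these regions: for regions in 5 lists it was 80.4%, in 4 lists 76.0%, in 3 lists 70.3% and in 2 lists 65.4%.

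Regions with equal 5′ ends only were wide, with a median of 1923 bp against 606 bp where both ends were equal and 861 bp where the 3′ end was. Where only the 3′ end varied, it did so by 405 bp at the median (middle range 103 to 990 bp), and 6 different ends occurred in 224 of the 467. Where only the 5′ end varied, the difference was 85.5 bp at the median. Regions of the first kind lie at CCPG1, GASK1B, IER5L, THRAP3 (from 36769397) and KAT6A (from 41787739). The other regions of THRAP3 and KAT6A had both ends equal. Those of the second kind lie at IER2, IER5 and GNG11. In 128 regions neither end was equal; these had a median width of 2804.5 bp, and JUN, HEXIM1 and CFLAR were among them.

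**Figure D4:**
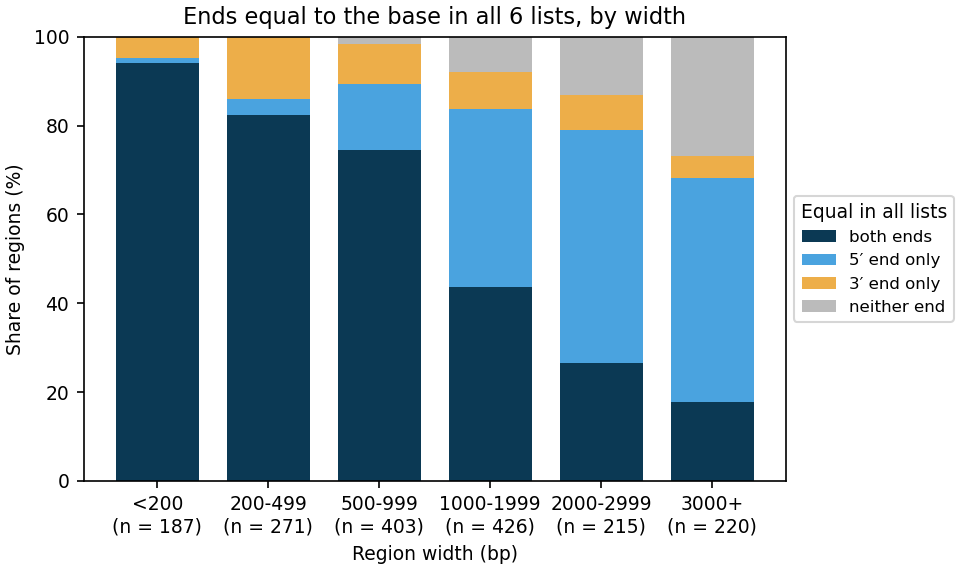
Share of regions (vertical axis, %) whose ends were the same base in all 6 lists, by region width (horizontal axis, bp, number of regions in parentheses). Colours separate both ends, the 5′ end only, the 3′ end only and neither; both ends are equal in 94.1% of regions under 200 bp and 17.7% of those of 3000 bp or more.

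In 1676 regions (97.3%) each list contributed exactly 1 interval, and the most in any region was 10. Joining by chained overlap also admitted 7 regions with no base common to all lists. They lie at TSC1, the mTORC1 inhibitor hamartin (chromosome 9, 135766735 to 135772141, minus), SNAP29, a SNARE of autophagosome fusion (chromosome 22, 21241967 to 21245475, plus), NCOA1 and ZBTB39, HOXA3 and PDPR, and on chromosome 17 from 46671639 to 46676081 (minus), where no gene was named. In TSC1 the percentiles ran from 19.7 in A to 90.6 in F, and in SNAP29 from 9.15 in D to 72.8 in B.

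Just outside the rule were 1635 regions held by 5 lists. Of these, 633 lacked only F, 460 only E and 369 only D, while 107 lacked A, 41 lacked C and 25 lacked B. An interval of the missing list lay within 1000 bp on the same strand for 8 of the 633, 12 of the 460 and 6 of the 369. It did so for 4 of the 107 without A, 2 of the 41 without C and 6 of the 25 without B, which at 24% was the highest share. The median percentile in the lists that did hold them was 72.3 for those missing from F and 54.7 for those missing from A.

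Along the chromosomes most regions stood alone. The gap to the next region on the same strand was 1.07 Mb at the median and 437 bp at the least, and 175 of 1674 gaps were within 10 kb. Joining neighbours within 10 kb put 318 regions (18.5%; 16.7% to 20.4%) into 143 runs, of which 123 were pairs. The binomial interval treats regions as independent, which members of the same run are not, so it is too narrow to be relied on. Among regions in 5 lists, a set of similar size, 9.48% lay in runs of their own kind and the largest run had 3 members. The share was 9.61% for regions in 4 lists, 16.8% for the more numerous ones in 3 and 17.8% for those in 2. Of the 7655 regions in 1 list, 2297 lay in runs, and the largest run had 12 members. That is a larger share than the 18.5% above, but a more numerous set has smaller gaps. Shares of sets that differ in number therefore cannot be compared. Regions in fewer lists lay in runs too. In the sets nearest in number, those in 5 and in 4 lists, the share was lower than 18.5%. These differences were not tested. Regions in runs had a median width of 460.5 bp against 1171 bp for those alone, and both ends were equal in 76.7% against 52.5%. These shares were not matched for width. Under 200 bp, 94.1% of regions had both ends equal and 46.0% lay in runs. At 3000 bp or more it was 17.7% and 9.55%.

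The longest run lay in ZC3H13, which encodes a zinc-finger subunit of the m6A writer complex itself. It had 6 regions on the minus strand of chromosome 13 between 46541639 and 46563232, over 21.6 kb. They were 192 to 1224 bp wide, all 6 had identical ends in every list, and the median percentiles lay between 82.2 and 94.3. The score of the region from 46542883 to 46544106 (1224 bp), the widest, was, from A to F, 2598.87, 3100, 2788.69, 912.46, 794.77 and 2627.54. The 5′-most region, from 46562922 to 46563232 (311 bp), had the lowest median percentile, standing at 45.5 in D and 56.9 in F. In B, 5 of the 6 regions stood at 3100.

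Runs of 5 regions lay in EIF3A, TOP1 and TNRC18. The EIF3A run covers 12.9 kb, and beside the 3 regions at 3100 it holds 191 bp from 120796631 to 120796821 at percentile 95.6 and 89 bp from 120803566 to 120803654 at 67.5. In the latter, the percentiles from A to F were 95.5, 93.9, 78.4, 48.5, 56.7 and 33.9. The TOP1 run is the most compact, with 5 regions of 56 to 124 bp within 8.40 kb, and a sixth TOP1 region of 97 bp lies upstream at 39690034 to 39690130. TNRC18, a large nuclear protein, had a run over 14.4 kb of chromosome 7 with percentiles from 70.7 to 94.4, and a further region of 1665 bp from 5427303 to 5428967.

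Runs of 4 regions lay in EIF5B, ACBD3 and GOLIM4, all with identical ends. From 5′ to 3′ the regions of the EIF5B run stood at 98.6, 94.5, 76.4 and 82.4. Another EIF5B region, upstream of the run from 99953834 to 99954052, stood at 91.5. ACBD3 was the most uneven run: its 285 bp region stood at 97.9, while the other 3 stood at 40.0, 51.0 and 43.0. The region from 226346885 to 226347059 (175 bp) stood between percentiles 22.2 (B) and 70.7 (F). GOLIM4, a Golgi membrane protein, had percentiles of 71.5 to 93.9 in its run.

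**Figure D5:**
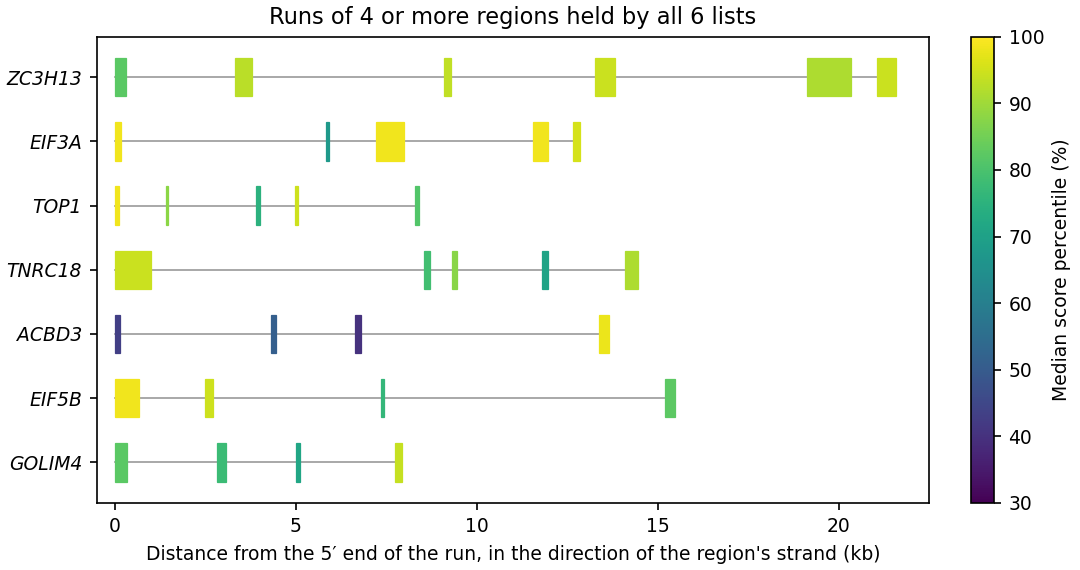
Regions held by all 6 lists in the 7 runs of 4 or more, drawn to scale as distance from the 5′ end of the run in the direction of the strand (horizontal axis, kb), 1 gene per line. Colour gives the median score percentile of each region; ZC3H13 has 6 regions between 82.2 and 94.3, and ACBD3 has 1 region at 97.9 and 3 between 40.0 and 51.0.

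The 13 runs of 3 regions gave further examples, named after they were seen. TIMP1, an inhibitor of matrix metalloproteinases, had 3 regions on chromosome X between 47441690 and 47446190 (plus), and the 3′-most, 271 bp from 47445920, stood at percentile 96.0 against 74.3 and 65.3 for the others. UPF3B, a factor of nonsense-mediated decay, stood at 94.6, 72.6 and 55.3. IGF2R, a receptor that carries lysosomal enzymes, held regions of 153, 70 and 1878 bp with percentiles of 90.8, 64.9 and 95.8. The histone acetyltransferase KAT6A, the kinase LATS2, the splicing factors MFAP1 and THRAP3, and ZSCAN29, CCDC186, FKBP15 and TPM4 had runs of the same size.

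The fullest 1 Mb windows held 8 regions each. That of chromosome 5 beginning at 134 Mb had regions in 5 named genes, among them 2 in PITX1, a homeobox transcription factor, from 134363424 to 134365011 (1588 bp) and from 134369403 to 134369964 (562 bp) on the minus strand. Both PITX1 regions had equal ends throughout, at percentiles 88.0 and 74.7. The others lie at the RNA helicase gene DDX46 (2 regions), TXNDC15 (2 regions), C5orf24 and CAMLG. In the window of chromosome 7 beginning at 5 Mb, TNRC18 accounts for 6 of the 8 regions. The others were FBXL18 and WIPI2, a phosphoinositide-binding protein of autophagosome formation, whose region from 5270466 to 5273486 (plus, 3021 bp) stood highest in B (percentile 93.9) and lowest in F (4.23).

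Windows of 7 regions were mixed in the same way. On chromosome 1 from 16 Mb the regions lie in SPEN (2), PLEKHM2 (2), the receptor gene EPHA2, SZRD1 and NECAP2. On chromosome 19 from 16 Mb they lie in the tropomyosin gene TPM4 (3), FAM32A (2), CHERP and SLC35E1. Over the genome, 934 windows held at least 1 region, 506 of them exactly 1, and 94 windows with 4 or more held 446 regions (25.9%).

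The 2 strands contributed 856 (plus) and 866 (minus) regions, and no region overlapped another on the opposite strand. A few regions counted the same sequence more than once. In the part shared by the ends of X and Y, 3 pairs of regions had equal widths and lay exactly 50000 bp apart in position on the 2 chromosomes, at AKAP17A (781 and 1860 bp) and CSF2RA (534 bp). Reads from this shared sequence cannot be assigned to either copy. The scores of the copies were equal for CSF2RA in F (143.44) and for both AKAP17A regions in B and C (3100), and unequal in the other lists. For the AKAP17A regions the difference was widest in list A, where they scored 187.92 and 197.49 on X, and 3100 and 3215.28 on Y.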

How the data were processed

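The data were 6 peak lists of MeRIP-seq on H460 cells, each line giving coordinates, a peak name, a score and the strand, with no header. The submitters' processing notes name HISAT2 2.0.4 and the hg19 build. The authors' deposited score has no stated scale, and neither the peak caller's settings nor the pooling of libraries is stated in the labels. Peak names have the default form of MACS. Library depth is unknown.

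Starts were made 1-based and intervals were joined by strand with a minimum overlap of 1 bp. For each region and list the highest-scored interval gave the percentile. Ends were compared to the base. Neighbours on the same strand within 10 kb formed runs. No test was made, because the calls themselves chose the regions and no list was given an arm. The regions and lists of genes were chosen with earlier results of these data known.

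The rule for named regions took those at or above 3100 in all lists, the 10 widest, the 10 lowest, the longest runs and the fullest 1 Mb windows. Others were named after their values were seen, as marked. Genes were named from general knowledge of hg19 positions, with no lookup of coordinates. All 105 named genes lie on the same chromosome in the RefSeq annotation of GRCh38.p14, all 84 neighbouring pairs have the same order there, and the strand was the same for the 88 genes for which a promoter table gave it. The naming rule asked for the same strand, which was not checked for the other genes. A pair of regions that the rule named is not reported here. On Y, genes were named only for copies of regions on X. No sequence was printed, since no hg19 genome was used here.

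The work used Python 3.11.15 with scipy 1.17.1, numpy 2.4.6 and pandas 2.3.3, and figures were drawn in matplotlib 3.10.9. On 2000 simulated regions 13 of 13 known values were recovered, and bedtools 2.31.1 gave the same 6 counts of regions by number of lists.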

Additional observations from a re-analysis of the deposited data

How the results depend on the processing

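Number of regions: 1722 became 1666 with a reciprocal overlap of 50%, 1728 without strand, 1715 with a common base, 1716 without Y (added after the data were seen), 1155 at equal list length and 1747 (without B) to 2354 (without F) with each list left out. It became 572 when only scores from the pooled median (260.435) upward were kept, by construction. The median width of 997.5 bp became 1153.5 bp at that minimum, 1178 bp at equal length, and 947 to 1059 bp with a list left out. For the common part it was 865 bp over the 1715 regions with a common base, and 862 bp over all 1722. The share with both ends equal (57.0%) was 59.7% within 10 bp and 54.9% to 60.2% with a list left out, the highest without E. The share in runs (18.5%) was 11.2% within 5000 bp, 23.8% within 20000 bp and 18.5% to 20.7% with a list left out, again highest without E. At equal length the median percentile was, list by list from A, 76.9, 79.9, 85.8, 78.8, 78.8 and 76.7, and it was highest in C. With lowest ranks for ties it became 88.2 in B. The share of equal 5′ ends stayed between 75% and 78.3% with a list left out (added after the data were seen). For named regions, leaving out a list keeps the median percentile within the range of the 6 lists by construction, so it says nothing of stability. No paired analysis was possible because no list was given an arm. Depth is unknown, so a region missing from a list may be undetected.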
